A study of Mus musculus with 14 samples.

Results

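The 419 genomic regions described here had a RUNX2 peak on day 3 of ATDC5 differentiation but lay outside the H3K4me3 regions common to both libraries of that day. They were selected on the peak lists: a region was a stretch covered by a peak in both RUNX2 day 3 libraries, and it was kept when no stretch covered by both H3K4me3 day 3 libraries overlapped it. Of 17401 RUNX2 day 3 regions on assembled chromosomes, 419 (2.41%) lay outside and 16982 inside, and there were 21011 H3K4me3 day 3 regions. ATDC5 is a chondrogenic mouse line that the labels trace to the teratocarcinoma AT808. Chromatin was taken from undifferentiated cells on day 0 and, on days 3 and 10, from cells spotted as droplets and kept with β-glycerophosphate and an ascorbate. For every day there were 2 RUNX2 and 2 H3K4me3 libraries, of the unmodified line as far as the labels say. Whether the paired libraries are separate cultures is not stated.

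RUNX2 is a DNA-binding transcription factor that, with its partner CBFβ, drives osteoblast differentiation and the hypertrophic maturation of chondrocytes. H3K4me3 is trimethylation of lysine in the tail of histone H3, is laid down around active and poised promoters, and is weak or lacking at most enhancers. Interferon-stimulated genes, which recur below, are antiviral genes switched on through STAT and IRF factors, and their promoters often carry an interferon-stimulated response element made of repeated GAAA units.

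The lists set limits on all values. RUNX2 gave 19319 peaks in replicate 1 and 16859 in replicate 2 of day 3, and between 97 and 108 in its 4 lists of days 0 and 10. The 6 H3K4me3 lists ranged from 13765 peaks (day 0 replicate 1) to 29022 (day 10 replicate 2), with 28653 in replicate 1 and 26781 in replicate 2 of day 3. The RUNX2 lists of day 3 were far more alike than any other pair of long lists: 8992 summits, 53.3% of the shorter list, fell on the same base, against 0.109 to 0.545% in the other 27 pairs of lists of over 1000 peaks. Of the peaks of RUNX2 replicate 1, 71.8% lay wholly within a peak of replicate 2, against 2.90% for the H3K4me3 lists of day 3. The shortest stretch common to both RUNX2 lists was 202 bp, while the H3K4me3 lists met over as little as 1 bp. Within the outside regions both summits fell on the same base in 129 of 419 (30.8%), and inside in 8863 of 16982 (52.2%). Reads were not analysed here and the cause was not tested, so the RUNX2 libraries of day 3 were counted as 1 sample and their agreement was not used as a replicate check.

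Several of the strongest outside regions lay at interferon-stimulated genes. The sequences below show transcript starts of 5 such genes, beside those of 2 other genes. They are promoters with at least 1 motif match within the RUNX2 region. Ifit1bl2, which also has one, is not shown because its window shares 245 bases with that of Ifit1. Each is the 250 bases before the transcript start, 5′ to 3′ on the strand of the gene, from RefSeq on GRCm38.p6. Capitals mark GAAANNGAAA, the core of the interferon-stimulated response element, or TGTGGT, the core letters bound by RUNX factors, on either strand (TTTCNNTTTC and ACCACA on the opposite one), and include a TGTGGT of Dnah7c, 184 bases before the start, that lies outside the region.
Ifit1: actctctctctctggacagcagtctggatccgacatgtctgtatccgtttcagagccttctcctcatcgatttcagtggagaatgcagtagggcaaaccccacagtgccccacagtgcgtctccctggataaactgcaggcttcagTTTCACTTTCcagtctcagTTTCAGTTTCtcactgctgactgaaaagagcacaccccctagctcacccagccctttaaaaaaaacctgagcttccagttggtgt
Parp11: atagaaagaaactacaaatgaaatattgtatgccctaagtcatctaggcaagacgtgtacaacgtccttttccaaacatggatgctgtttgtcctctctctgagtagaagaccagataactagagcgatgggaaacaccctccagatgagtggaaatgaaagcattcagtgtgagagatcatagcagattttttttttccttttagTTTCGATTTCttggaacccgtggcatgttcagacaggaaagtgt
Apol9a: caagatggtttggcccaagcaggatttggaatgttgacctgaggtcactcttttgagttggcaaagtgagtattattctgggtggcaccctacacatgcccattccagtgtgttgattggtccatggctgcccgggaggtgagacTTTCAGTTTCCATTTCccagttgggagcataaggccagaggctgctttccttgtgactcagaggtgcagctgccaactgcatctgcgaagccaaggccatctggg
Cxcl10: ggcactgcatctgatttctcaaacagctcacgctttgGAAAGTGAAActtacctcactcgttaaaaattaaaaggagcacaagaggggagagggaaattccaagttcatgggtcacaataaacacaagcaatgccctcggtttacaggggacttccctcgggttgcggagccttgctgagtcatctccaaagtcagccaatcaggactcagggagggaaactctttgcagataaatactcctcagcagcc
Mndal: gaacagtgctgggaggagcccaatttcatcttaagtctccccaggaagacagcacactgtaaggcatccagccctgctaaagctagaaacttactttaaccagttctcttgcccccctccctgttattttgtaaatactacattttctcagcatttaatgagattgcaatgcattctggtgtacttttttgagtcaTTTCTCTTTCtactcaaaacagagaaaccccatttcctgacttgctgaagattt
Paqr7: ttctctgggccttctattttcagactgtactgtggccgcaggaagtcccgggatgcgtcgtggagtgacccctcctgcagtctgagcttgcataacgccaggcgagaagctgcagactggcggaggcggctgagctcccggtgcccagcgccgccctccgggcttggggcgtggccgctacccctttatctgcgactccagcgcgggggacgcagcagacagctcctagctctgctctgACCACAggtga
Dnah7c: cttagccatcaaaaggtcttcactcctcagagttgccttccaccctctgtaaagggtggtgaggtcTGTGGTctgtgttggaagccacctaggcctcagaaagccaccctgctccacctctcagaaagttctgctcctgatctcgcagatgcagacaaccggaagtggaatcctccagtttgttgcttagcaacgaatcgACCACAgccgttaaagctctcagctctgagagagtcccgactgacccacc
These windows lie at chr19:34640639-34640888 (plus strand) for Ifit1, chr6:127446590-127446839 (plus) for Parp11 and chr15:77411035-77411284 (minus) for Apol9a. Those of Cxcl10 and Mndal lie at chr5:92348890-92349139 and chr1:173879959-173880208, both on the minus strand. Those of Paqr7, a membrane progestin receptor gene, and Dnah7c, an axonemal dynein gene, lie at chr4:134496791-134497040 and chr1:46425268-46425517, both on the plus strand.

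The outside regions came from the weak end of the RUNX2 lists. The authors' −log10 q of the RUNX2 peak had a median of 6.86 (replicate 1) and 5.94 (replicate 2) for outside regions, and of 32.4 and 52.1 for inside regions. Fold enrichment over the local background had medians of 4.42 and 4.04 outside and of 6.64 and 10.9 inside. By the smaller −log10 q of the 2 lists, the outside share was 181 of 835 regions (21.7%, exact 95% interval 18.9 to 24.6) below 5, 180 of 2120 (8.49%) from 5 to 10 and 45 of 2752 (1.64%) from 10 to 20. From 20 to 40 it was 12 of 5707 (0.210%), and from 40 it was 1 of 5987, the region at Oasl2. RUNX2 strength is part of what chose the regions, and it was not tested. All intervals are for counting error alone, as if regions were independent.

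**Figure D1:**
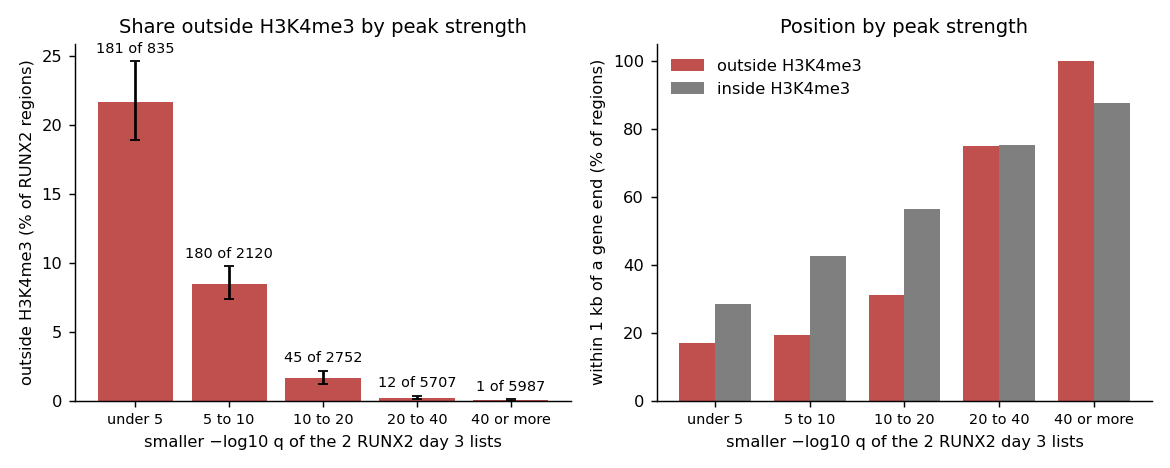
Left, the percentage of RUNX2 day 3 regions that lay outside H3K4me3, by the smaller −log10 q of the RUNX2 lists, with exact 95% intervals and counts above the bars; it was 21.7% below 5 and 0.210% from 20 to 40. Right, the percentage of outside (red) and inside (grey) regions within 1 kb of a protein-coding gene end in the same classes, which was 17.1% outside and 28.4% inside below 5, and 75.0% outside and 75.2% inside from 20 to 40.

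Outside regions were narrow. Their width had a median of 360 bp (quartiles 285 and 524.5 bp, lowest 231 and highest 1752 bp), while inside regions had a median of 1031.5 bp (quartiles 656 and 1393 bp). Of the outside regions 41 (9.79%) measured exactly 254 bp, the shortest peak in either RUNX2 list, as did 114 inside regions (0.671%). Width followed strength in both classes. Among the regions with a −log10 q under 10 in either list, the median was 345 bp outside and 387 bp inside. The nearest H3K4me3 region shared by both day 3 lists was a median of 31525 bp away from an outside region, with 65 regions (15.5%) within 1 kb and 130 (31.0%) over 100 kb away.

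Most outside regions lay away from gene ends, the first and last base of protein-coding gene spans. Within 1 kb of a gene end were 90 of 419 outside regions (21.5%, interval 17.6 to 25.7) and 12061 of 16982 inside regions (71.0%, interval 70.3 to 71.7; two-sided Fisher's exact test over regions, adjusted p = 5.86e-95). Among the regions further away, 124 of 329 outside regions (37.7%) and 2822 of 4921 inside regions (57.3%) lay within a gene span (Fisher's exact test, adjusted p = 5.20e-12). Between genes lay 205 outside regions (48.9%) and 2099 inside regions (12.4%). Over 50 kb from any gene end were 131 outside regions (31.3%) and 1021 inside regions (6.01%). These p-values take regions as units of 1 sample, so they do not measure the spread between cultures.

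The difference in position was smaller among weak peaks. Among regions with a −log10 q under 10 in either RUNX2 list, 18.3% of outside and 39.1% of inside regions lay within 1 kb of a gene end (Fisher's exact test, adjusted p = 2.02e-15). Further from gene ends in that subset, 39.7% of outside and 49.0% of inside regions lay within a gene span (Fisher's exact test, adjusted p = 0.00345). The subset was added after the data were seen and was cut on RUNX2 values that formed the regions. Its p-values take regions as units, and the part of peak strength in the differences was not tested. Among the few strong outside regions the position was another: with a −log10 q of at least 20 in both lists, 10 of 13 outside regions (76.9%, interval from 46.2%) and 9523 of 11681 inside regions (81.5%) lay at a gene end. Outside regions near a gene end had the higher medians of −log10 q, 7.61 and 7.22 for the 90 near ones and 6.86 and 5.68 for the 329 further away. Median fold enrichment was higher near ends in replicate 2 only, at 4.40 and 4.62 near and 4.44 and 3.83 further away. The near regions were wider, with a median of 435.5 bp and 349 bp for those further away.

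**Figure D2:**
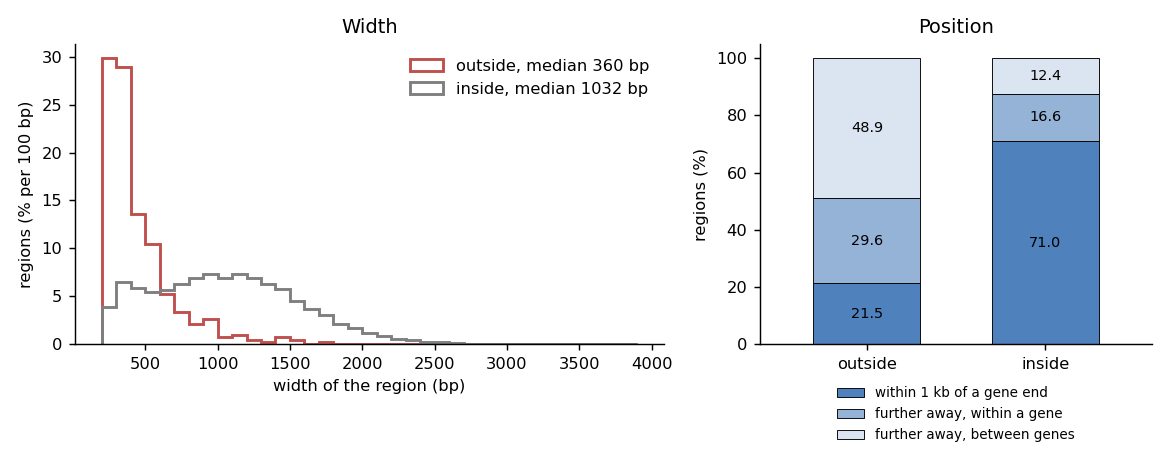
Left, width of outside (red) and inside (grey) RUNX2 day 3 regions, as the percentage of each class per 100 bp. Right, the percentage of each class by position against protein-coding genes; 21.5% of outside and 71.0% of inside regions lay within 1 kb of a gene end.

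With ends of all annotated genes, noncoding ones included, 148 outside regions (35.3%) and 13209 inside regions (77.8%) lay within 1 kb. Among the 329 outside regions away from coding ends, the nearest annotated gene within 1 kb was a long noncoding RNA in 35 (10.6%) and a pseudogene in 12 (3.65%). Of the 4921 inside regions away from coding ends, these were 764 (15.5%) and 89 (1.81%). It was a transfer RNA in 2 outside and 127 inside regions (0.608 and 2.58%), and a microRNA in 2 and 42 (0.608 and 0.853%). A small nuclear RNA was nearest in 1 and 31 (0.304 and 0.630%). A ribosomal RNA was nearest in 0 (exact upper limit 1.11%) and 16 (0.325%). Transfer RNA genes were overlapped by 0 of 419 outside regions (exact upper limit 0.877%) and by 61 of 16982 inside regions (0.359%). By transcript starts, which the RefSeq promoter table gives with strand, 99 outside regions (23.6%) and 11866 inside regions (69.9%) lay within 1 kb of one. Of the 90 outside regions at coding gene ends, 57 (63.3%) were within 1 kb of a transcript start, as were 9998 of 12061 inside regions at gene ends (82.9%).

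Although no H3K4me3 region of day 3 touched them, most outside regions, 278 of 419 (66.3%), overlapped a peak of at least 1 of the 2 lists of that day. On day 0, replicate 1 had a peak at 21 outside regions (5.01%) and replicate 2 at 88 (21.0%). Inside, these shares were 78.4% and 93.4%. On day 3, 254 outside regions (60.6%) overlapped a peak of replicate 1, 28 (6.68%) one of replicate 2, and 4 of these one of each at different bases. That left 141 regions with no H3K4me3 peak in either day 3 list. The single-list peaks were weak: their −log10 q had a median of 8.66 in replicate 1 and 5.32 in replicate 2 at outside regions, and of 60.3 and 27.2 at inside regions. On day 10, replicate 1 had a peak at 60 outside regions (14.3%) and replicate 2 at 266 (63.5%). The corresponding inside shares were 90.7% and 99.8%.

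**Figure D3:**
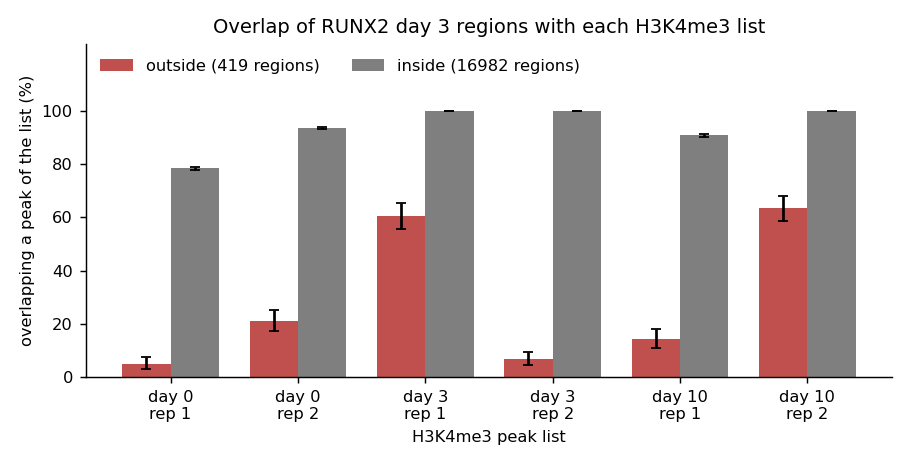
Percentage of outside (red) and inside (grey) RUNX2 day 3 regions that overlap a peak of each H3K4me3 list, with exact 95% intervals. The inside bars of day 3 are 100% by the rule that chose the regions; outside, day 3 replicate 1 (60.6%) and day 10 replicate 2 (63.5%) stand above the other 4 lists.

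By both libraries of a day that the rule did not use, H3K4me3 was rarer at outside than at inside regions. The rule chose outside regions for lacking this mark on day 3, so the tests on other days give no independent support. In either library, the mark was at 102 outside regions (24.3%) on day 0 and 271 (64.7%) on day 10. Inside, these shares were 94.1% and 99.8%. Both day 0 lists had a peak at 7 of 419 outside regions (1.67%, interval 0.674 to 3.41) and at 13192 of 16982 inside regions (77.7%; Fisher's exact test, adjusted p = 9.84e-248). Both day 10 lists had one at 55 of 419 outside regions (13.1%, interval 10.0 to 16.7) and at 15402 of 16982 inside regions (90.7%; Fisher's exact test, adjusted p = 1.54e-293). In the weak subset, with a −log10 q under 10 in either RUNX2 list, the day 0 shares were 1.39% outside and 24.4% inside (adjusted p = 5.50e-33 by Fisher's exact test). In it the day 10 shares were 11.4% outside and 55.0% inside (adjusted p = 5.47e-60 by the same exact test). The limits given above for this subset hold here too. The lists differed in length, with 13765 and 20863 peaks on day 0 and 15219 and 29022 on day 10, and the part of list length in these shares was not tested.

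Counted over all 6 H3K4me3 lists, 76 outside regions (18.1%) had a peak in none, 91 in 1, 155 in 2, 74 in 3, 21 in 4, 2 in 5 and 0 in all 6. The most frequent combination was day 3 replicate 1 with day 10 replicate 2 and no other, in 107 regions. A further 40 regions had day 10 replicate 2 alone and 37 had day 3 replicate 1 alone. A peak on day 0 or day 10 but in neither day 3 list was found at 65 regions (15.5%).

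Interferon-stimulated genes were frequent at the strongest outside regions. By the worse of the 2 ranks, all of the 10 strongest lay within 1 kb of a gene end, and 7 of the 10 at interferon-stimulated genes: Oasl2, Ifit1, Apol9a, Ifi44, Dhx58, Apol9b and Parp11. Among the 100 strongest, 34 lay at a gene end, 13 of them at interferon-stimulated genes, and among all 416 outside regions without a RUNX2 peak of day 0 or 10, 90 and 19. A list of 96 such genes, drawn up after these values had been seen and so not tested, had an outside region within 1 kb of an end at 20 genes (20.8%), against a background of 0.443% of all 21887 protein-coding genes (97 genes). An inside region lay at 57 of the 96 (59.4%), against 52.6% of all protein-coding genes. No RUNX2 region common to both lists lay at 22 (22.9%), against 47.1% of all protein-coding genes. The 22 include Rsad2, Oas2 and Zbp1, without a RUNX2 day 3 peak at an end in either list. They also include Isg15, with a peak in replicate 2 only, and Ifi203, Ifi44l, Oasl1 and Sp100, with one in replicate 1 only. Icam1, Slfn8 and Uba7 had both an outside and an inside region.

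**Figure D4:**
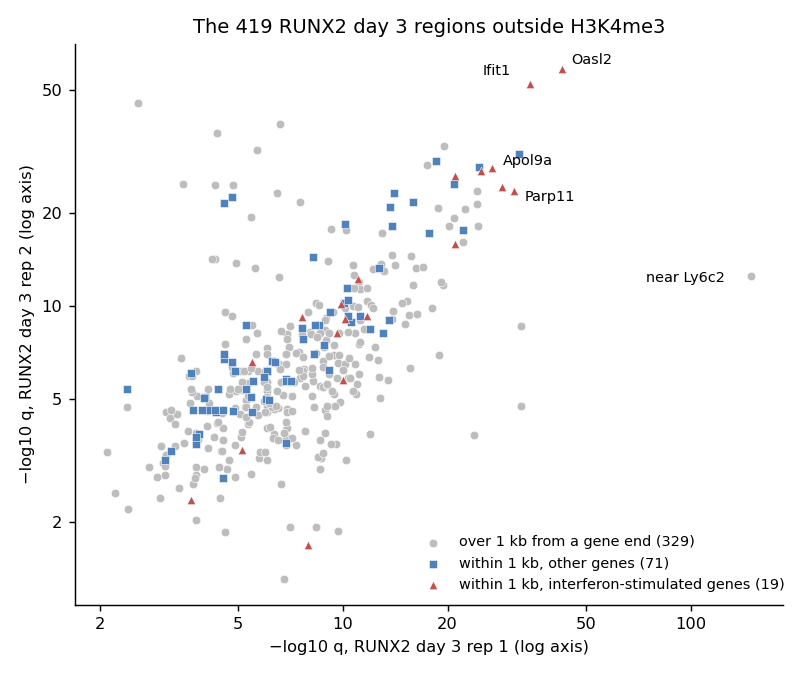
The −log10 q of each of the 419 outside regions in the RUNX2 day 3 lists, replicate 1 across and replicate 2 up, both axes logarithmic; triangles are regions within 1 kb of an end of an interferon-stimulated gene (19), squares those at other genes (71) and circles those further away (329). Oasl2 and Ifit1 lie at the top, at 42.6 and 34.4 in replicate 1 and 58.3 and 52.4 in replicate 2.

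Oasl2, which encodes an oligoadenylate synthetase-like protein, had the strongest outside region, at chr5:114897087-114898609. Its RUNX2 peak reached 42.6 (replicate 1) and 58.3 (replicate 2) in −log10 q, with fold enrichments of 7.16 and 10.8. H3K4me3 overlapped it on day 3 in replicate 1 (−log10 q of 9.74) and on day 10 in replicates 1 and 2 (8.43 and 20.5). No H3K4me3 peak of day 0 and none of day 3 replicate 2 overlapped it.

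Ifit1, whose product binds viral RNA that lacks the host's cap methylation, came next, at chr19:34640219-34641618. Its RUNX2 −log10 q was 34.4 and 52.4 and its fold enrichment 6.38 and 10.9. The region covers all 250 printed bases, the transcript start and the start of the divergent neighbour Ifit1bl2. Both RUNX2 summits lay on the same base, 314 bp from the nearer GAAANNGAAA match. H3K4me3 overlapped it in day 3 replicate 1 (−log10 q of 7.12) and on day 10 (5.38 and 22.8). Ifit3, of the same family, had a weaker region at chr19:34583425-34584035 (−log10 q of 11.0 and 12.2).

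At Parp11, which encodes an ADP-ribosyltransferase, the region chr6:127446508-127447609 had a RUNX2 −log10 q of 31.1 and 23.5, and the response element core lay 68 and 70 bp from the summits. Apol9a and Apol9b, interferon-inducible apolipoprotein L genes of the mouse, had regions at chr15:77410117-77411191 (−log10 q of 26.8 and 27.9) and chr15:77729109-77730103 (28.6 and 24.3). They are close copies, and how reads with several matches were placed is not given in the sources used here, so their values may share reads. Ifi44, an interferon-induced gene, had 24.9 and 27.4 at chr3:151748812-151749979. Dhx58, which encodes the RNA sensor LGP2, had 21.1 and 26.4 at chr11:100703411-100704255.

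Weaker regions lay at Ikbke, encoding a kinase upstream of interferon induction (−log10 q of 20.9 and 15.8), Tnfsf10, encoding the death ligand TRAIL (11.7 and 9.27), and Ifitm7, of the family of membrane proteins that block viral entry (10.2 and 9.10). Cxcl10, encoding a chemokine, had 9.59 and 8.20 in a region of 260 bp. Its response element core lay 14 and 12 bp from the summits. Oas3 and Oas1a, oligoadenylate synthetase genes, had 9.88 and 10.1, and 3.65 and 2.35. Uba7, whose product activates ISG15 for conjugation, had 9.98 and 5.77, and Mndal, of the DNA-binding Ifi200 family, had 7.92 and 1.69.

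Across these 19 regions, day 3 replicate 1 and day 10 replicate 2 held most of the H3K4me3 peaks. Day 0 had a peak at 0 in replicate 1 and at 1 in replicate 2, the region at Uba7. Day 3 replicate 1 had one at 13 and replicate 2 at 1, the region at Icam1, which encodes an adhesion molecule. Day 10 replicate 1 had a peak at 5 and replicate 2 at 16. The regions at Oas3, Slfn8 and Apol6 overlapped no peak of any list. At an end of the gene itself, Slfn8 had a peak in both day 3 lists and Oas3 in day 3 replicate 2. At the 71 outside regions at ends of other genes, day 0 replicates 1 and 2 had 5 and 26 peaks, those of day 3 had 48 and 10, and those of day 10 had 21 and 54. With H3K4me3 day 3 defined by replicate 1 alone, or by either library, 6 of the 19 remained outside. This group thus rests on replicate 2 of day 3, which had no peak over 18 of the regions. At the ends of the 20 interferon-stimulated genes with an outside region, day 3 replicate 1 had a peak at 15 and replicate 2 at 6. The regions at Icam1 and Ikbke lay 69 and 108 bp from an H3K4me3 region of both day 3 lists.

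**Figure D5:**
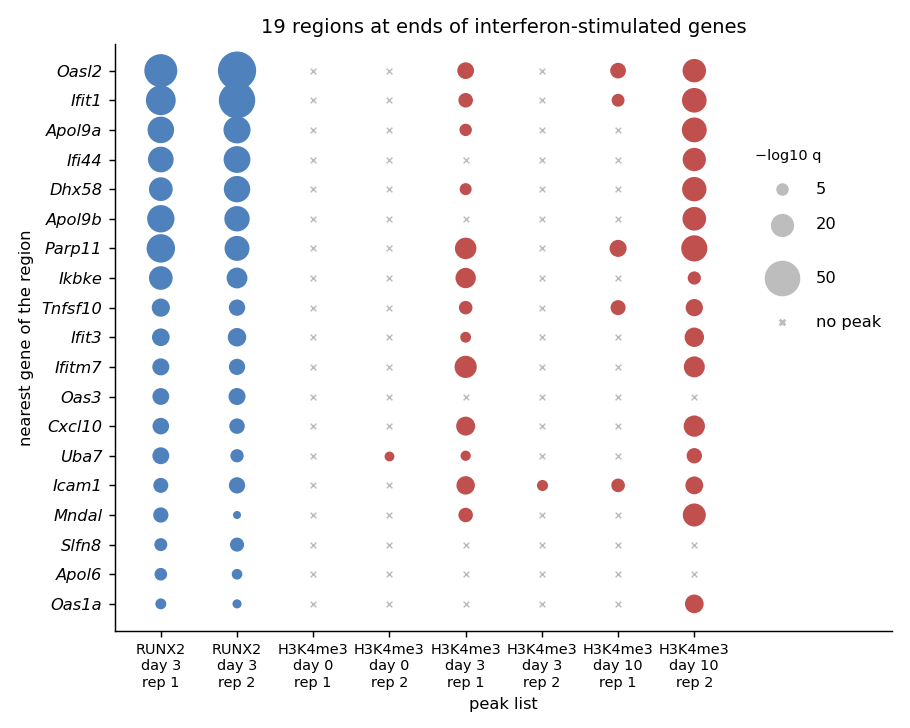
Peaks at the 19 outside regions within 1 kb of an end of an interferon-stimulated gene, strongest at the top, in the RUNX2 day 3 lists (blue) and the 6 H3K4me3 lists (red). Dot area is proportional to the authors' −log10 q and a cross marks no peak over the region. On day 0 only the region at Uba7 overlaps an H3K4me3 peak, and on day 3 replicate 2 only that at Icam1.

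The other 3 of the 10 strongest were 9930012K11Rik, Itm2a and Il1rapl1. The region at 9930012K11Rik, chr14:70158798-70159645, had a −log10 q of 32.2 and 30.9 and overlapped H3K4me3 in every list but day 3 replicate 2. Itm2a, encoding a membrane protein known from cartilage differentiation in the mouse, had 24.6 and 28.2 at chrX:107402503-107403311. Il1rapl1, of the interleukin receptor family and active at synapses, had 20.8 and 24.8 at chrX:88115441-88116153. The 5 widest outside regions were at Ccn5 (1752 bp), which encodes a matricellular protein of the CCN family, Angptl4 (1572 bp), encoding an inhibitor of lipoprotein lipase, Oasl2 (1523 bp), BC147527 (1479 bp) and between genes nearest to Dynlrb2 (1410 bp), a dynein light chain gene. The Ccn5 region, chr2:163820893-163822644, had a −log10 q of 14.0 and 23.2. It overlapped H3K4me3 in both day 0 lists, and a second outside region lay beside it under the same RUNX2 peak of replicate 2.

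Of the 76 regions without H3K4me3 in any list, the strongest lay between genes. That region, chr5:118393128-118394050, had a −log10 q of 24.3 and 23.5, fold enrichments of 6.80 and 6.47, and no protein-coding gene end within 130014 bp, the nearest being that of Spring1, a regulator of sterol signalling. Next came a region within Plch2, a phospholipase gene, at chr4:155009966-155010911 (13.0 and 17.3) and one 96619 bp from Mrpl39, a mitochondrial ribosomal protein gene (13.8 and 14.6). Of the 10 strongest of this kind 2 lay within 1 kb of a gene end, at Spin2c (12.7 and 13.3) and Oas3 (9.88 and 10.1). The others were nearest to Gm14410, Akap9, Gm5662, Cebpb and 4932411N23Rik, with distances between 1191 and 123047 bp. That nearest to Akap9, chr5:4052610-4052954, had fold enrichments of 5.78 and 2.29. It shares its replicate 1 peak with another outside region, which overlapped a RUNX2 peak of day 0. Regions with no H3K4me3 in any list made up 7 of the 90 outside regions at gene ends (7.78%) and 69 of the 329 further away (21.0%).

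Of the genes listed for cartilage and bone, Runx2 and Sox9 were the nearest gene, within 50 kb, of an outside region. The nearest gene within 50 kb was taken for each region: 277 genes were nearest to an outside one, a background of 1.27% of the 21887 protein-coding genes, and 11936 (54.5%) to an inside one. Of the 277, 140 (50.5%) were nearest to an inside region as well. Of 291 genes in 16 lists for chondrocyte, bone and other cell types and signalling, 12 (4.12%) were nearest to an outside region and 213 (73.2%) to an inside one. None of 20 cartilage matrix, 16 mature and hypertrophic chondrocyte or 16 osteoblast genes was among the 12. Nor was any gene of the muscle, adipocyte, tendon, pluripotency, blood or housekeeping lists. At a background of 1.27%, lists of this size with no gene do not stand apart.

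Of the 16 chondrocyte transcription factor genes, 2 were among the 12, Runx2 itself and Sox9, the factor that sets up the chondrocyte fate. At 0 of the 16 did an outside region lie within 1 kb of an end. Of the same 16, 15 were nearest to an inside region and 14 had one at an end. The Runx2 region, chr17:44503906-44504740, lay within the gene 7919 bp from its nearer end, with a −log10 q of 7.73 and 6.26. It had H3K4me3 in day 3 replicate 1 and in both day 10 lists. The Sox9 region, chr11:112810943-112811492, lay 23186 bp from the gene, with 11.1 and 7.52. It had H3K4me3 in day 0 replicate 1, day 3 replicate 1 and day 10 replicate 2. Both were weak next to the inside medians of 32.4 and 52.1.

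Signalling genes gave 6 of the 12. Smad3, which carries TGF-β signals to the nucleus, had an intragenic region without H3K4me3 in any list (−log10 q of 5.38 and 4.20). Smad6, an inhibitor of BMP signalling, had a region 12442 bp away (5.21 and 4.72). Dkk3, of the dickkopf family of secreted proteins, had one within the gene at chr7:112117804-112118221 (9.21 and 17.8). Fgf9, a growth factor of skeletal development, had a 254 bp region 670 bp from its gene end (4.81 and 22.6), 235 bp from an H3K4me3 region. Fgfr2, a receptor for such factors, was nearest to 2 regions within 50 kb, of which that at chr7:130143812-130144819 was the stronger (18.8 and 20.7). Sufu, a repressor of hedgehog signalling, had an intragenic one (9.49 and 4.74).

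The remaining members were Ankrd1, a target of YAP and TEAD, Fosb, an AP-1 subunit gene, Tagln, which encodes the actin-binding transgelin, and the neuronal vesicle gene Syt1. The Ankrd1 region, chr19:36119805-36120062, lay on the promoter with a −log10 q of 6.14 and 4.97. The Fosb region lay 9595 bp from the gene (12.2 and 9.86), and that of Tagln at a gene end (10.3 and 10.5). Syt1 had 1 region within 50 kb, at chr10:109010675-109011754 over a transcript start (13.7 and 20.9).

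Outside regions were scattered over genes. The 419 were nearest to 385 genes when no limit of distance was set, 358 of which had 1 region, 20 had 2 and 7 had 3. The 7 were Dynlrb2, Fgfr2, Maf, Nfib, Slc6a2, Syt1 and Zfp184, and 20 genes tied below them. Maf and Nfib encode transcription factors with roles in chondrocyte maturation and in organ development, and their regions lay 337206 to 394080 bp and 116048 to 223433 bp from the gene. The Maf regions lay 378 to 930 bp from an H3K4me3 region of both day 3 lists. Those starting at chr8:116044100 and chr8:116044549 shared a RUNX2 peak of replicate 2, so they are not separate peaks there. Those of Slc6a2, the noradrenaline transporter gene, lay beside each other within the gene. The regions nearest to Zfp184 lay 33796 to 47625 bp from it, and transfer RNA genes were within 1 kb of 2 of them. Within 10 kb of another outside region lay 28 of the 419 (6.68%), and within 10 kb of an inside region 84 (20.0%). A RUNX2 peak that also gave an inside region was shared by 22 (5.25%).

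High-copy positions, taken here as overlap with a RUNX2 peak of day 0 or 10, gave few of the outside regions. Copy number and repeat content were not measured. The RUNX2 lists of days 0 and 10 held about 100 peaks each, and 3 outside regions (0.716%) and 45 inside regions (0.265%) overlapped one of those. The region nearest to Ly6c2, at chr15:75086312-75086969, did so in all 4 of these lists. It had a fold enrichment of 12.0 in RUNX2 day 3 replicate 1, the highest of any outside region there, and of 1.79 in replicate 2, where it ranked 13759 against 12 in replicate 1. It overlapped no H3K4me3 peak. The other 2 were nearest to Akap9 (fold enrichment 5.78 and 1.96) and to Gm15319 (2.47 and 1.76), each in 1 of the 4 lists. The Akap9 one lies under the same RUNX2 peak of day 3 replicate 1 as chr5:4052610-4052954, named above among the regions without H3K4me3.

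At the border of the rule, 14 outside regions lay within 100 bp of an H3K4me3 region, and 34 inside regions overlapped one by under 100 bp. The 14 had a median width of 321.5 bp and a median smaller −log10 q of 5.46. The 34 had 341 bp and 5.28.

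Promoter windows of 300 bases, from 250 before to 50 after a transcript start, were overlapped by 57 outside regions (13.6%) and 9719 inside regions (57.2%). With 1 window for each gene, 58 genes had a window overlapped by an outside region. All 32851 windows, given for comparison, belong to 27025 genes, so a gene can count there with several windows. GAAANNGAAA on either strand was in 10 of the 58 windows (17.2%, interval 8.59 to 29.4), in 287 of 10314 windows overlapped by an inside region (2.78%) and in 1131 of all 32851 windows (3.44%). All 10 were among the 15 windows of interferon-stimulated genes, and 0 of the 43 others had it (exact upper limit 8.22%). Interferon-stimulated genes of the list, with or without an outside region, had it in 39 of 80 windows, 1 for each gene (48.8%, interval 37.4 to 60.2). The windows of Ifit1 and Ifit1bl2 share 245 bases, so the 10 stand for 9 separate stretches. TGTGGT on either strand was in 8 of the 58 windows (13.8%, interval 6.15 to 25.4), in 1125 of the 10314 windows overlapped by an inside region (10.9%) and in 5506 of all windows (16.8%). The match lay within the RUNX2 region in 6 of the 10 windows for the first motif and in 2 of the 8 for the second, those of Paqr7, 4 bp from both summits, and Dnah7c. A match is a description of these letters only. Outside these windows the bases of the regions were not examined.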

How the data were processed

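ChIP-seq peak lists of 12 of the 14 samples were used; the 2 input libraries were not analysed here. Per the submitters' processing notes, the authors used FastQC, Trim Galore, HISAT2 2.2.0 and MACS2; the sources used here give no settings, use of the inputs or duplicate removal. Each deposited list gives positions, a score, fold enrichment as a linear ratio, and −log10 p and −log10 q of each peak, all the authors' values; the score was not used further. Reads per library are unknown, so a missing peak does not show that a mark is absent. The notes name GRCm39, but 37.9 to 70.2% of H3K4me3 summits lay within 1 kb of gene ends of a RefSeq GRCm38.p6 table, and 6.12 to 7.99% after a shift by 20 kb, so positions are read as GRCm38, counted from 1.

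Overlapping peaks were merged per list, and an overlap of 1 bp counted. Shares carry exact Clopper-Pearson 95% intervals (scipy 1.17.1), and 4 two-sided Fisher's exact tests were adjusted together by Benjamini-Hochberg (threshold 0.05), with interval handling tested on simulated data. The 4 tests repeated in the subset with a −log10 q under 10 were not in that set. That subset was cut on the RUNX2 values that formed the regions. The members and gene lists were chosen with earlier results of these data known; named regions are the 10 strongest by worse rank, the 10 strongest without H3K4me3, the 5 widest and those at high-copy positions, and named genes are list members nearest to a region within 50 kb and genes nearest to the most regions. The interferon list, its weaker regions and the sequences were chosen after their values were seen. Alternatives are given in the closing section.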

Additional observations from a re-analysis of the deposited data

How the results depend on the processing

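The number of outside regions depended on the lists and limits. Leaving out 1 library of day 3 at a time gave 165 (without H3K4me3 replicate 2) to 1525 (without RUNX2 replicate 2). It was 141 when H3K4me3 in either library counted, 652 when the mark had to cover at least 50% of a region, 238 with a RUNX2 −log10 q of at least 5, and 690 with an H3K4me3 −log10 q of at least 5. The 4 tested differences kept their direction and passed 0.05 in all alternatives run. Within 1 kb of protein-coding gene ends, the outside share was lowest without RUNX2 replicate 2 (12.3%). It was 14.2% with H3K4me3 in either list, and highest when the mark had to cover at least 50% of a region (26.8%). By other measures of position it was 26.3% within 2.5 kb, 31.0% within 5 kb, and 35.3% within 1 kb of ends of all annotated genes. The share with H3K4me3 in both day 10 lists ranged from 4.52 to 21.9%, that for day 0 from 0.459 to 4.91%, and that within a gene span from 34.6 to 44.0%. The median width of outside regions ranged from 328 to 427 bp. The share without H3K4me3 in any list was 38.8% without RUNX2 replicate 2, 46.1% without H3K4me3 replicate 2 and 53.9% with either list. It was 11.0% with an H3K4me3 −log10 q of at least 5, 11.7% when the mark had to cover at least 50% of a region and 11.8% with a RUNX2 −log10 q of at least 5. The restriction to a −log10 q under 10 and the counts of interferon-stimulated genes were added after the data were seen. No paired analysis was possible because every comparison is between regions of the same lists. Depth per library is unknown.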

Other observations

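The outside share of RUNX2 day 3 regions differed between chromosomes other than Y, which had 0 outside and 7 inside regions. It ran from 14 of all regions on chromosome 11 (1.03%) and 9 on chromosome 17 (1.10%) to 35 on chromosome 13 (4.32%) and 24 on chromosome 12 (3.82%), with 20 on the X chromosome (3.20%). Chromosomes were not compared by a test.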
